A study of Mus musculus with 18 samples.

Results

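An shRNA against RTP801 (gene Ddit4) was delivered by virus to the hippocampus of 5xFAD mice. Their pool of hippocampal tRNAs and other RNAs of tRNA size was compared with that of 5xFAD mice that received a control shRNA. The comparison takes in every mouse labelled 5xFAD: 6 treated with shRTP801 (mice 2, 7, 8, 12, 14 and 19) and 3 with shCT (mice 1, 16 and 18), that is 9 of the 18 mice of the series. The others are WT mice of a B6SJL background, 5 with shCT and 4 with shRTP801, and they serve to ask whether a difference seen in 5xFAD mice differed from that in WT mice. They also entered the limma fits, so that the standard errors and p values rest on the spread within all 4 groups. All mice were male and were injected on both sides, in CA1 and in the dentate gyrus, at 6 months of age, and tissue was taken 4 weeks later. Both viruses were rAAV2/8 that carried the shRNA behind the H1 promoter and GFP behind the RSV promoter, so the controls had also been infected and carried GFP. The 5xFAD line is a model of Alzheimer's disease whose transgenes are driven in neurons by Thy1 promoters. The RNA came from both hippocampi of each mouse, with 1 library per mouse, so neurons that the virus did not reach and all other cell types of the tissue are part of each value. Ddit4 mRNA is outside the size range of these libraries, and the silencing itself was therefore not measured here.

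A tRNA is transcribed by RNA polymerase III as a precursor (pre-tRNA) with a leader at its 5′ end and a trailer at its 3′ end, and a small group of precursors also carries an intron just after the anticodon. The TSEN endonuclease cuts the intron out, and the tRNA ligase complex, whose catalytic subunit is HSPC117 (RtcB), joins the exons. RTP801 is a stress-responsive protein known to restrain mTORC1, and the study asked whether its silencing in neurons affects the splicing of pre-tRNAs. In mice, introns are found in genes of 4 families, named by amino acid and anticodon: Arg-TCT, Ile-TAT, Leu-CAA and Tyr-GTA.

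The deposited values are normalized counts from tRAX, and in each library all of them were whole multiples of 1 value, so reads could be recovered by division. The 18 libraries held 17977654 to 33979943 reads, and 50809 to 318628 reads lay on precursors in the 9 5xFAD mice. Mouse 7 stood apart from the other 5xFAD mice, with 0.294% of its reads outside nuclear tRNAs against 13.3% to 59.7% in the others. In WT shCT mouse 5 and WT shRTP801 mouse 4, mature tRNAs likewise held 98.7% and 98.1% of reads, beside 98.0% in mouse 7. Both WT mice entered the limma fits, the WT means and the interactions. Many, but not all, fitted differences of named features that moved by more than 1.5 times without mouse 7 are given both ways. Mir124a-1, a precursor of a neuronal microRNA, took up 0.00173%, 0.0000446% and 0.00219% of the other small RNA reads in shCT mice 1, 16 and 18, and 0% to 0.0063% in shRTP801 mice. The neuronal Arg-TCT-4-1 precursor was seen in all 9 mice, with 2 to 32 reads. Mir219a-2, of oligodendrocytes, took up 0.0384%, 0.0294% and 0.0128% in the shCT mice and 0% to 0.0337% in the shRTP801 mice. The lowest of these values are near the floor. Of the 8 brain microRNA genes in the table, 2 passed the filter on low values, and the endothelial one, Mir126, did not. None of the microRNA genes fixed for myeloid cells, erythrocytes, liver or muscle was in the table.

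One intron-containing tRNA is shown here, because the comparison turns on what is cut out of such a molecule. RefSeq places the tRNA gene n-TItat14, an isoleucine tRNA with anticodon UAU, at chr13:21896938-21897031 on the minus strand of GRCm38.p6, inside the 132-nucleotide hairpin annotated as Mir1983. The first line has the 20-nucleotide intron in capitals, and the second has the spliced form with the anticodon in capitals.
n-TItat14 with intron: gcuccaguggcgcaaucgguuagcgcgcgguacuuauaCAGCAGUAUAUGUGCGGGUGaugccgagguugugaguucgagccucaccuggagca
n-TItat14 spliced: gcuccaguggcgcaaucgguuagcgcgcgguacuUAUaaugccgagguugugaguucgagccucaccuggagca
The unspliced form is 94 nucleotides long and the spliced form 74, both inside the 60 to 100 nucleotides taken from the gel. Hydrolysis breaks these molecules before sequencing, so a read covers only a piece of one, and no read of a whole precursor was counted at an intron-containing locus in any mouse. The table names tRNAs by GtRNAdb symbols without positions, and does not say which of the Ile-TAT loci is n-TItat14.

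The first comparison is of the RNA classes. Reads on mature nuclear tRNAs made up 53.7%, 40.1% and 40.3% of all reads in shCT mice 1, 16 and 18, and 48.6% to 98.0% in shRTP801 mice, with a median of 72.6%. The means were 44.7% ± 7.77 (SD, n = 3) and 72.6% ± 18.9 (SD, n = 6), and their log2 ratio was 0.70 (two-sided exact permutation test, p = 0.0476, 0.0714 after adjustment over the 6 classes). The ranges overlapped, since mouse 1 lay above mouse 19. Of the 84 ways to split 9 mice into 3 and 6, the smallest p possible is 0.0119. In bulk tissue, fewer cells of a type and less RNA per cell cannot be told apart.

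snoRNAs, which guide chemical modification of other RNAs in the nucleolus, made up 6.86%, 6.17% and 7.78% of reads in the shCT mice, and 0.107% to 5.42% in the shRTP801 mice, with a median of 2.43%. Every shRTP801 mouse lay below every shCT mouse. The means were 6.94% ± 0.806 (SD, n = 3) and 2.57% ± 1.99 (SD, n = 6), which gave -1.43 on the log2 scale (exact permutation p = 0.0238, adjusted 0.0714), and without mouse 7 the log2 ratio was -1.18 (exact permutation p = 0.0357).
Other small RNAs were all genes not assigned to another class. Among them were spliceosomal RNAs, Y RNAs, microRNA precursors, the U3 snoRNA genes Rnu3a and Rnu3b and names without a RefSeq match. With near-identical copies of a gene counted once, they were also lower in all 6 shRTP801 mice, at 0.0842% to 5.98% against 7.46%, 6.97% and 7.88%. With every copy counted the groups overlapped, since shRTP801 mouse 8, at 8.04%, lay above shCT mouse 16, at 7.55%. The log2 ratio with copies counted once was -1.01 (exact permutation p = 0.0476, adjusted 0.0714).

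Mitochondrial tRNAs, which serve translation inside mitochondria, made up 27.3%, 37.4% and 37.6% of reads in the shCT mice and 0.0319% to 28.1% in the shRTP801 mice, with a median of 14.6%. The groups overlapped only through shRTP801 mouse 2, at 28.1%, and shCT mouse 1, and the log2 ratio of the means was -1.16 (exact permutation p = 0.0357, adjusted 0.0714).
Precursors made up 0.231%, 0.158% and 0.259% of reads in the shCT mice and 0.240% to 1.69% in the shRTP801 mice, with a median of 0.310%. The highest value was that of mouse 7, and the log2 ratio of 1.34 (exact permutation p = 0.357, adjusted 0.429) became 0.56 without it. rRNA fragments, at 4.50%, 9.15% and 6.09% against 0.0713% to 13.9%, had a log2 ratio of -0.32 (exact permutation p = 0.714). With every copy counted they held 31.7%, 48.8% and 38.3% of reads in the shCT mice and 0.661% to 60.7% in the shRTP801 mice.
Thus none of the 6 shares passed a threshold of 0.05 after adjustment. With so few mice, a class alone at the smallest possible p could not pass after adjustment over the 6. In WT mice the shares did not lie in the same order: mature tRNAs held 72.0% ± 24.2 (SD, n = 5) with shCT and 55.7% ± 28.6 (SD, n = 4) with shRTP801, and snoRNAs 2.57% ± 2.16 (SD, n = 5) and 4.76% ± 3.14 (SD, n = 4). No interaction was tested for the shares.

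**Figure D1:**
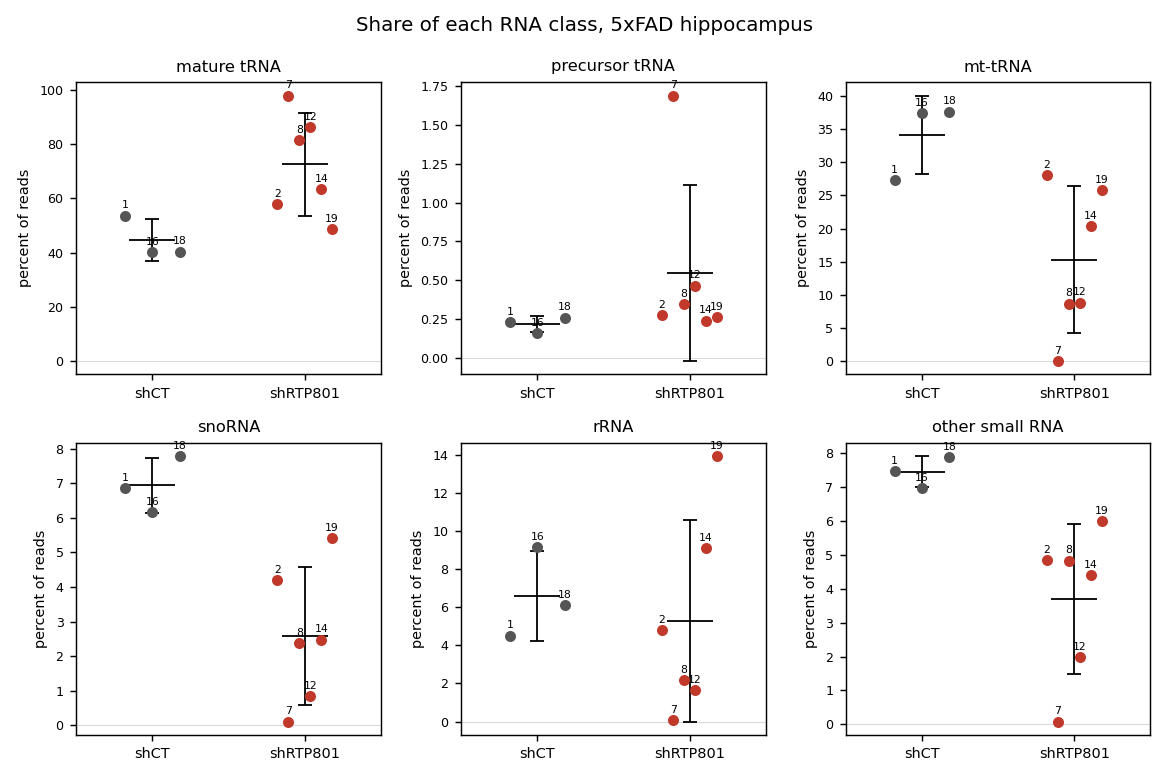
Share of recovered reads (percent, vertical axes from 0) of each of 6 RNA classes in the 5xFAD mice; points are single mice with their numbers, and the bars give the mean and SD of 3 shCT and 6 shRTP801 mice. Near-identical copies are counted once. All shRTP801 mice lie below the shCT mice for snoRNAs and other small RNAs, the latter not so with every copy counted, and mouse 7 has the highest precursor share, 1.69%.

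The main question of the series concerns precursors with an intron. The study listed 22 such loci, and 20 of them were in the table: 9 of Tyr-GTA, 4 of Leu-CAA, 4 of Ile-TAT and 3 of Arg-TCT. Nearly all reads at these loci were counted as partial precursor reads. The counts do not say which reads cover the intron, so a read at such a locus does not by itself show a retained intron. In what follows, these 20 loci are meant. Together they took up 3.77% (95% Wilson interval 3.62 to 3.92), 3.25% (3.10 to 3.41) and 2.48% (2.36 to 2.59) of precursor reads in shCT mice 1, 16 and 18. In the 6 shRTP801 mice they took up 0.198% to 1.77%, with a median of 1.32%. Every shRTP801 mouse lay below every shCT mouse, and mice 7 and 12, at 0.198% and 0.287%, lay lowest. The intervals cover counting error only, since reads without molecular identifiers are not independent molecules. The means were 3.16% ± 0.650 (SD, n = 3) and 1.08% ± 0.673 (SD, n = 6), so the share with shRTP801 was 2.94-fold lower (log2 ratio -1.55). The log2 ratio lay between -1.75 and -1.34 when any single mouse was left out.

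The size of this difference depended on what the reads were divided by. Out of all reads rather than precursor reads, the same 20 loci had 87.0, 51.3 and 64.0 RPM (reads-per-million of all reads) in the shCT mice and 13.3 to 54.7 in the shRTP801 mice. On this scale shRTP801 mouse 8 passed shCT mouse 16, and the log2 ratio was -0.90. As reads, the loci had 2285, 1652 and 1706 in the shCT mice and 314 to 1278 in the shRTP801 mice.
In WT mice these loci took up 1.03% ± 1.10 (SD, n = 5) with shCT and 1.04% ± 0.605 (SD, n = 4) with shRTP801, a log2 ratio of 0.02 between treatments. WT shCT mice ranged from 0.214% to 2.87%, and the upper end of that range lay above shCT mouse 18 of the 5xFAD line. No p is given for these sums, as the list was chosen with results of these data known.

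Within the shRTP801 mice, the intron-containing share moved with the make-up of the libraries. Over the 6 shRTP801 mice, its log2 value correlated with the log2 snoRNA share (Pearson r = 0.92, permutation p = 0.00833, Spearman rho = 0.83, permutation p = 0.0583, the 1 relation computed). Without mice 7 and 12, the ones farthest from the median log2 snoRNA share, r was 0.60 over the other 4, so the relation rests largely on these mice. Without mice 7, 8 and 12, which had the lowest shares of reads outside nuclear tRNAs, the log2 ratio of the intron-containing share was -1.11. Among WT mice, where no correlation was computed, mice 5, 4 and 11 had the lowest snoRNA shares, at 0.0234%, 0.124% and 1.05%. They also had the lowest intron-containing shares, at 0.232%, 0.181% and 0.214%. The other WT mice had 3.01% to 7.03% and 0.687% to 2.87%, not in the same order. WT mouse 10, with 7.03% snoRNA reads, had 1.57%, and WT mouse 15, with 5.64%, had 2.87%. The order also differed in the shCT mice of the 5xFAD line, where mouse 18 had the highest snoRNA share, 7.78%, and the lowest intron-containing share, 2.48%. The part of library make-up in the difference was not tested beyond these values.

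By family, precursors were fitted with limma as log2 percentages of precursor reads, after 0.001% was added to each, and all log2 differences below are on this scale unless said otherwise. None of the 48 families passed an adjusted p of 0.05 (0%), by limma or by edgeR or DESeq2 on the recovered reads. Before adjustment limma gave 2 lower (4.17%) and 0 higher, whereas edgeR, which scales the precursors of a library by TMM, gave 1 lower and 3 higher and DESeq2 1 lower and 5 higher. Groups did not overlap in 3 families with all shRTP801 mice below (6.25%) and in 1 with all above (2.08%).

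Pre-tRNA-Tyr-GTA, whose tyrosine tRNAs all come from genes with an intron, took up 0.923%, 1.21% and 0.671% of precursor reads in shCT mice 1, 16 and 18. In the shRTP801 mice it took up 0.0822% to 0.399%, with a median of 0.311%. The groups did not overlap, and mice 12 and 7 were the lowest. The log2 difference was -2.04 ± 0.62 (SE; limma adjusted p = 0.218), with the smallest p of the table, and -1.82 without mouse 7.
Pre-tRNA-Arg-TCT took up 0.0874%, 0.165% and 0.0813% in the shCT mice and 0.00628% to 0.0785%, with a median of 0.0546%, in the shRTP801 mice. The groups did not overlap here either, though mice 8 and 14 came close to shCT mouse 18, and the log2 difference was -1.64 ± 0.96 (SE; limma adjusted p = 0.568). The family also holds loci without an intron, and over its 3 intron-containing loci alone mouse 8, at 0.0657%, lay above shCT mouse 18, at 0.0639%.
Pre-tRNA-Leu-CAA took up 1.16%, 0.535% and 1.28% against 0.0333% to 0.773%, with a median of 0.273%. The groups overlapped, with shRTP801 mouse 2 above shCT mouse 16, and the log2 difference was -2.28 ± 1.43 (SE; limma adjusted p = 0.568).
Pre-tRNA-Ile-TAT took up 1.60%, 1.40% and 0.466% against 0.0574% to 1.02%, with a median of 0.452%. Here shCT mouse 18 lay among the shRTP801 mice, and the log2 difference was -1.64 ± 1.07 (SE; limma adjusted p = 0.568).
The median log2 difference of these 4 families was -1.84, that of the other 44 families -0.10 and that of all 48 families -0.16.

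**Figure D2:**
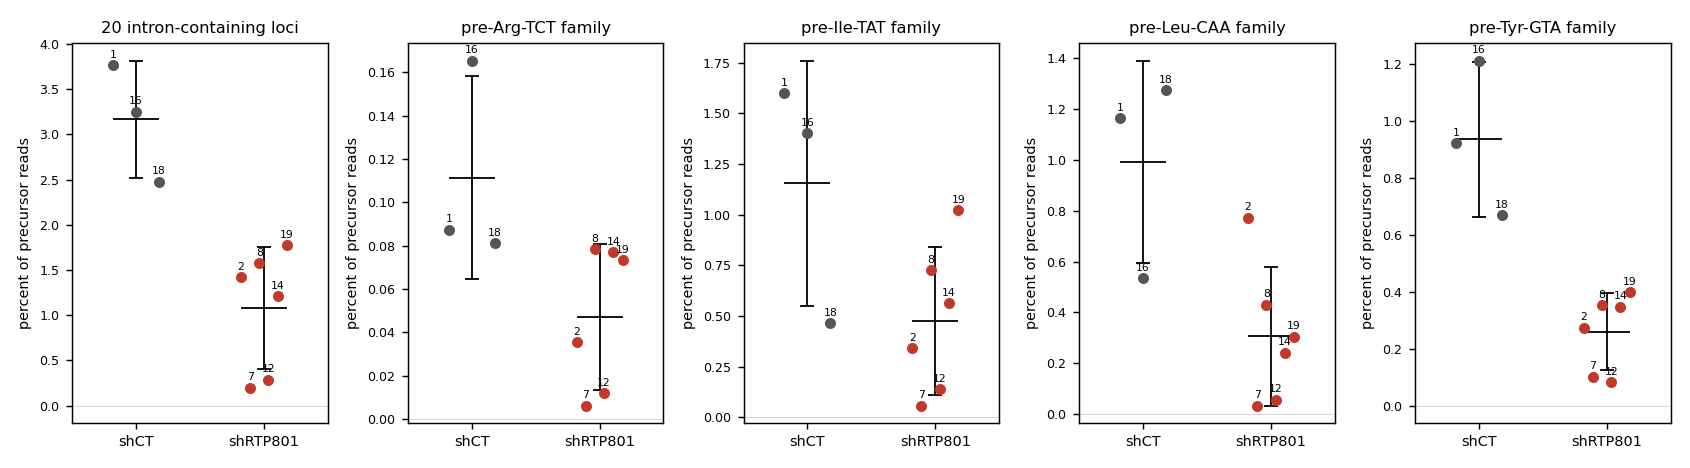
Percentage of precursor reads (vertical axes from 0) on the 20 intron-containing loci together and on each of the 4 families that hold them; points are single 5xFAD mice with their numbers, bars the mean and SD of 3 shCT and 6 shRTP801 mice. The groups are apart for the 20 loci (2.48% to 3.77% against 0.198% to 1.77%), for pre-tRNA-Arg-TCT and for pre-tRNA-Tyr-GTA, and overlap for the other families.

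With the log2 snoRNA share of each library as a covariate, the log2 difference was -1.46 for pre-tRNA-Tyr-GTA, -0.62 for pre-tRNA-Arg-TCT, -0.63 for pre-tRNA-Leu-CAA and -0.49 for pre-tRNA-Ile-TAT. Of these values, only that of Tyr-GTA was beyond 1 log2 unit. The snoRNA share itself did not overlap between the 5xFAD groups, so treatment and library make-up cannot be fully told apart in this fit. On the deposited normalized values, where the median family stood at 0.68, the differences were -1.20, -0.83, -1.44 and -0.80 in the same order.

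Of the families without an intron, pre-tRNA-Pro-CGG, of a proline tRNA, took up 0.129%, 0.173% and 0.200% in the shCT mice and 0.0369% to 0.117% in the shRTP801 mice. No shRTP801 mouse reached the lowest shCT mouse (log2 difference -0.90 ± 0.39, limma adjusted p = 0.568, and -0.06 on the deposited values). Pre-tRNA-Ala-TGC, of an alanine tRNA, was the family with all shRTP801 mice above, at 1.25% to 4.14% against 1.18%, 1.21% and 0.893% (log2 difference 0.71 ± 0.38, limma adjusted p = 0.568). Pre-tRNA-Ala-CGC had the largest positive difference, 1.40 ± 0.70 (limma adjusted p = 0.568), with 0.167%, 0.311% and 0.264% against 0.237% to 1.39%.
Pre-tRNA-SeC-TCA, which inserts selenocysteine at recoded stop codons, had a log2 difference of -2.28 ± 1.68 (SE; limma adjusted p = 0.568), and of -1.42 without mouse 7. It took up 0.551%, 0.482% and 0.282% in the shCT mice and 0.00345% to 0.329% in the shRTP801 mice, and the groups overlapped. Initiator methionine precursors (iMet-CAT), which start every protein chain, differed by -0.25 ± 0.28, and by -0.16 without mouse 7. The most abundant precursors, Asp-GTC, Gly-GCC and Glu-CTC, had log2 differences of -0.46, -0.33 and -0.34, each with overlapping groups. Without mouse 7, that of Gly-GCC turned to 0.09.

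At the level of single genes, none of the 333 precursor loci tested passed the threshold in limma (0%), nor in edgeR or DESeq2. Before adjustment, limma gave 16 lower (4.8%) and 9 higher (2.7%) loci, while edgeR gave 8 lower and 23 higher and DESeq2 9 lower and 18 higher. All shRTP801 mice lay below all shCT mice at 15 loci (4.5%) and above at 4 (1.2%). Of the 20 intron-containing loci, 18 were fitted lower and 2 higher, 5 had an unadjusted limma p under 0.05 and 6 had no overlap, all of them lower. Their median log2 difference was -1.66, and -1.42 without mouse 7, beside -0.09 for the other 313 loci and -0.13 for all. The medians by family were -1.49 for 9 Tyr-GTA loci, -2.10 for 4 Leu-CAA loci, -1.60 for 4 Ile-TAT loci and -1.54 for 3 Arg-TCT loci.

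Tyr-GTA-2-1, the Tyr-GTA locus with most reads in the control mice, took up 0.503%, 0.716% and 0.466% of precursor reads in shCT mice 1, 16 and 18 and 0.0247% to 0.234%, with a median of 0.126%, in shRTP801 mice. The groups were well apart, and the log2 difference was -2.67 ± 0.83 (SE; limma adjusted p = 0.422).
Tyr-GTA-3-1 took up 0.0313%, 0.0335% and 0.0508% against 0.00183% to 0.0217%, also without overlap (-2.21 ± 0.76). Its neighbour by name, Tyr-GTA-3-2, took up 0.368%, 0.439% and 0.139% against 0.0176% to 0.210% and overlapped (-1.78 ± 0.93).
The Tyr-GTA-1 loci were nearly empty, with at most 126 reads in a mouse. Among them Tyr-GTA-1-4 had a log2 difference of -1.49 ± 0.65 without overlap, whereas Tyr-GTA-1-2 and Tyr-GTA-1-3 were the 2 intron-containing loci with positive differences, 1.16 ± 0.68 and 1.08 ± 1.01. Tyr-GTA-1-2 had no read in any shCT mouse and 0 to 12 reads in the shRTP801 mice.

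Arg-TCT-1-1 and Arg-TCT-2-1 had no overlap, with log2 differences of -1.54 ± 0.48 and -2.25 ± 1.27, but these rest on 1 to 8 and 0 to 22 reads per mouse. The third Arg-TCT locus with an intron, Arg-TCT-3-1, overlapped (-1.15 ± 0.82).
Ile-TAT-1-1 took up 0.269%, 0.234% and 0.109% against 0.00314% to 0.107%, and the groups were apart by the small gap between shCT mouse 18 and the highest shRTP801 mouse (-2.32 ± 1.37, and -1.68 without mouse 7). Ile-TAT-2-1, the locus with most reads of its family, took up 1.16%, 0.974% and 0.241% against 0.0022% to 0.768% and overlapped (-2.36 ± 1.77, and -1.30 without mouse 7, -0.75 without mice 7, 8 and 12 and -0.21 with the snoRNA share as a covariate). Ile-TAT-2-3 differed least of the family (-0.68 ± 0.44).
Leu-CAA-2-1 took up 0.528%, 0.226% and 0.586% against 0.00847% to 0.270% (-2.68 ± 1.46), and Leu-CAA-3-1 0.549%, 0.260% and 0.432% against 0.0185% to 0.375% (-2.01 ± 1.41). All 4 Leu-CAA loci overlapped. Limma gave the 15 intron-containing loci with the larger unadjusted p, among them all of the Leu-CAA and Ile-TAT loci, adjusted p values of 0.598 to 0.949.

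**Figure D3:**
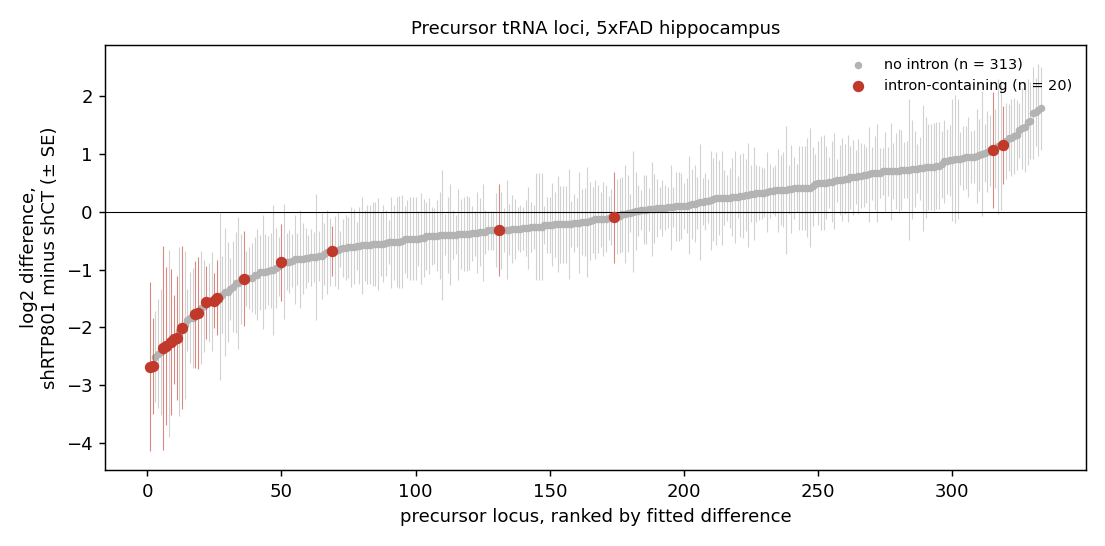
Fitted log2 difference (shRTP801 minus shCT, vertical axis, ± SE) of the 333 precursor loci tested, ranked from lowest to highest along the horizontal axis; red points are the 20 intron-containing loci and grey points the 313 others. Most red points lie at the low end, with a median of -1.66 against -0.09 for the grey points, and 2 lie at the high end.

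Loci without an intron were also found at the low end. Met-CAT-3-1, of an elongator methionine tRNA, took up 0.903%, 1.55% and 0.846% of precursor reads in shCT mice 1, 16 and 18 and 0.0637% to 0.428%, with a median of 0.163%, in shRTP801 mice. No shRTP801 mouse reached the lowest shCT mouse, and the log2 difference of -2.50 ± 0.78 (SE; limma adjusted p = 0.422) was close to that of Tyr-GTA-2-1. It rested on 86 to 786 reads per mouse.
Arg-ACG-2-1, of another arginine tRNA, had the smallest unadjusted p of all loci (limma adjusted p = 0.422), with a log2 difference of -1.87 ± 0.54 on 4 to 37 reads. Arg-TCT-4-1, the arginine tRNA gene known for expression in neurons and without an intron, took up 0.00659%, 0.0630% and 0.0174% against 0.000628% to 0.0277%. It overlapped (-1.39 ± 1.11, and -0.58 without shCT mouse 16 or -2.11 without shCT mouse 1), and so did the initiator locus iMet-CAT-3-1 (-2.07 ± 1.47, and -1.30 without mouse 7).
The 4 loci with all shRTP801 mice above were Ala-AGC-1-1, Ala-AGC-3-1, Cys-GCA-4-10 and Cys-GCA-21-1, with log2 differences of 1.72 ± 0.59, 1.58 ± 0.66, 1.41 ± 0.48 and 1.80 ± 0.72. Only Ala-AGC-3-1 had more than 16 reads in any 5xFAD mouse, with 5 to 140.

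Whether the difference by treatment was itself different in 5xFAD and WT mice was asked with the interaction term of the same limma fit. No family and no locus passed (lowest adjusted p 0.227 and 0.159). Before adjustment, 10 of 48 families (20.8%) and 51 of 333 loci (15.3%) had an interaction p under 0.05, and of these 1 family and 3 loci were among those with an intron.
Pre-tRNA-Tyr-GTA differed by 0.19 between treatments in WT mice against -2.04 in 5xFAD mice (limma adjusted p of the interaction 0.227). The median over the 20 intron-containing loci was 0.32 in WT mice against -1.66 in 5xFAD mice. Met-CAT-3-1 had 0.74 in WT mice (limma adjusted p of the interaction 0.241). The treatment difference of the intron-containing loci is therefore not shown to differ between genotypes.

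The balance of precursor and mature forms was described, without a test, as precursor reads per 1000 mature reads of the same family, in the 47 families with enough reads. In the Tyr-GTA family the ratio was 82.9, 95.6 and 115 in shCT mice 1, 16 and 18, and 6.31 to 67.6, with a median of 42.2, in shRTP801 mice. It was the 1 family of 47 in which all shRTP801 mice lay below all shCT mice.
The 4 families with an intron had the 4 lowest log2 ratios of group means of the 47: -1.77 for Leu-CAA, -1.42 for Arg-TCT, -1.27 for Tyr-GTA and -1.23 for Ile-TAT. The next was Ser-GCT, of a serine tRNA, at -1.13. The place of Leu-CAA rested on 1 control, since its ratio was 31.7, 24.7 and 195 in shCT mice 1, 16 and 18 and 6.00 to 89.9 in shRTP801 mice. Without mouse 18 its log2 ratio was -0.20, the 10th lowest, and the lowest were then Arg-TCT (-1.53), Ile-TAT (-1.47) and Tyr-GTA (-1.13). Without mouse 7 the order was Leu-CAA (-1.66), Tyr-GTA (-1.47), Ser-GCT (-1.30), Arg-TCT (-1.21) and Ile-TAT (-1.14). When any single mouse was left out, the log2 ratio lay between -1.47 and -1.04 for Tyr-GTA, -1.72 and -1.03 for Arg-TCT, and -1.70 and -0.98 for Ile-TAT.
Mouse 7 set much of the level of the other families. The median log2 ratio was 0.76 over all 47 families with it and -0.00305 without it, and the highest ratio, 2.89 for Gln-CTG, of a glutamine tRNA, became -0.69. The 1 family with all shRTP801 mice above was Asp-GTC, of an aspartate tRNA, at 9.78, 8.45 and 10.5 against 11.6 to 22.6.

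**Figure D4:**
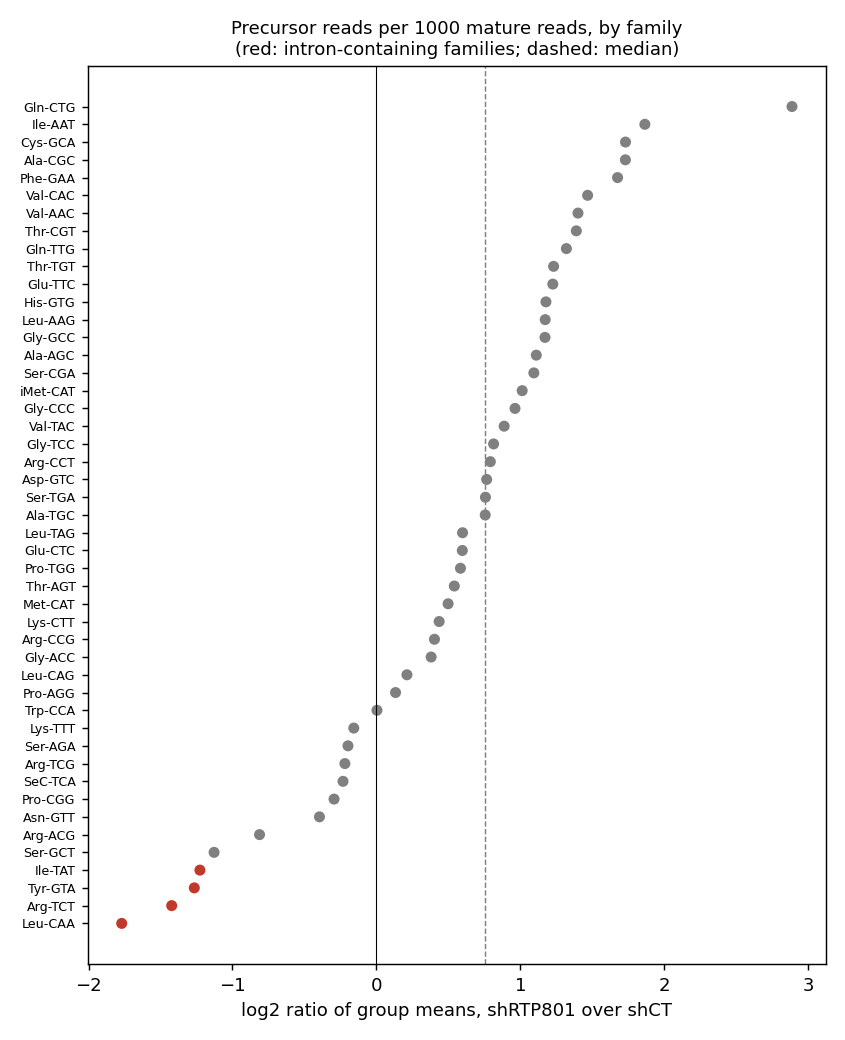
Log2 ratio of the group means (shRTP801 over shCT, horizontal axis) of precursor reads per 1000 mature reads for 47 tRNA families, in order of the ratio; the dashed line is the median, 0.76, which was -0.00305 without mouse 7. The 4 families with an intron, in red, lie at the bottom, from -1.77 for Leu-CAA, which was -0.20 without shCT mouse 18, to -1.23 for Ile-TAT.

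Mature tRNAs, the spliced and trimmed products, were compared as a percentage of mature reads. None of 49 families passed in limma (0%), edgeR or DESeq2, with 1 lower (2.04%) and 0 higher in limma, 0 in edgeR and 3 in DESeq2 before adjustment. The median log2 difference of the 4 families with an intron was 0.01: 0.46 ± 0.44 for Arg-TCT, 0.18 ± 0.30 for Ile-TAT, -0.17 ± 0.95 for Leu-CAA and -0.20 ± 0.32 for Tyr-GTA. Of 14 isodecoders (mature tRNAs of 1 sequence) made by the intron-containing loci, 7 were fitted lower and 7 higher.
Mature Tyr-GTA took up 0.0479%, 0.0499% and 0.0372% of mature reads in shCT mice 1, 16 and 18 and 0.0260% to 0.0703%, with a median of 0.0361%, in shRTP801 mice. Its lowest and highest values were both found in shRTP801 mice. The interaction with genotype had an unadjusted limma p under 0.05 in 4 of 49 mature families (8.16%) and 18 of 186 isodecoders (9.68%), none of them of the 4 families with an intron, and in none after adjustment.

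The mature family with the smallest p was Ile-AAT, the major isoleucine tRNA, whose genes have no intron. It took up 0.507%, 0.654% and 0.570% of mature reads in the shCT mice and 0.262% to 0.454%, with a median of 0.360%, in the shRTP801 mice. The groups did not overlap, the only such family of 49 (2.04%), and the log2 difference was -0.68 ± 0.25 (SE; limma adjusted p = 0.761), or -0.59 without mouse 7 and -0.13 on the deposited values.
Mature SeC-TCA took up 1.94%, 0.80% and 0.912% against 0.0378% to 1.47% and overlapped (-1.80 ± 1.54, and -1.19 without mouse 7). Initiator methionine tRNA differed by -0.34 ± 0.60. Gly-CCC, the most abundant family, took up 16.9% to 32.8% in shCT and 16.5% to 43.1% in shRTP801 mice (0.27 ± 0.37).
Among 186 isodecoders 0 passed in limma (0%), edgeR or DESeq2, with 2 lower (1.08%) in limma, 2 in edgeR and 8 in DESeq2 before adjustment. All shRTP801 mice lay below at 6 (3.23%) and above at 1 (0.538%). Ile-AAT-1 and Ile-AAT-3, at -0.68 ± 0.26 each, had near-identical counts and cannot be told apart. Asn-GTT-3, of an asparagine tRNA, held 35.5% of mature reads in mouse 7 and 1.34% to 7.32% in the other 5xFAD mice.

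tRAX also sorts the reads of a mature tRNA by the ends they reach. After hydrolysis these types tell which piece of the molecule was read and are not a count of tRNA fragments of the cell. Over 580 pairs of an isodecoder and an end type, 0 passed in limma (0%), with 20 lower (3.45%) and 2 higher (0.345%) before adjustment. All shRTP801 mice lay below at 14 (2.41%) and above at 2 (0.345%). The lower types with the smallest p were whole reads of Met-CAT-4 and Ser-TGA-2, which have no intron, and 5′ reads of Tyr-GTA-1 and Tyr-GTA-2. Most 5′ and whole-molecule types were fitted lower: of 151 5′ types 42 were higher, with a median log2 difference of -0.14, and 31 whole-molecule types were higher, with a median over all of them of -0.07.
At Tyr-GTA-1, reads that begin at the 5′ end made up 0.725%, 0.794% and 0.465% of the reads of the isodecoder in shCT mice 1, 16 and 18 and 0% to 0.391%, with a mean of 0.144%, in shRTP801 mice. There was no overlap (-1.81 ± 0.61 on log2 of the percentage plus 0.1%, limma adjusted p = 0.991). At Tyr-GTA-2 they made up 0.398%, 0.361% and 0.272% against 0% to 0.204% (-1.33 ± 0.43, limma adjusted p = 0.991), and at Ile-TAT-1 0.692%, 1.43% and 0.592% against 0% to 0.486% (-1.62 ± 0.86).
5′ reads of elongator methionine tRNAs without an intron lay in the same order, with Met-CAT-4 at 1.11%, 1.21% and 1.12% against 0.0276% to 0.943% (-1.82 ± 0.93). The initiator iMet-CAT-2 had more reads that reach neither end, with a mean of 18.2% against 8.98% (0.97 ± 0.34, limma adjusted p = 0.991), although the groups overlapped.

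Among mitochondrial tRNAs, compared as a percentage of mt-tRNA reads, 17 of 22 were fitted higher and 5 lower. On the deposited normalized values all 22 were lower, with a median of -2.37, so that a direction holds only relative to the class. None passed in limma (0%) or DESeq2, with 1 higher in limma before adjustment (4.55%) and 1 in DESeq2, and edgeR called 1.
The one called by edgeR was mt-Th, the histidine tRNA and the most abundant of the class. It took up 58.9%, 69.8% and 48.8% of mt-tRNA reads in shCT mice 1, 16 and 18 and 30.9% to 57.5%, with a median of 52.9%, in shRTP801 mice. The groups overlapped through shCT mouse 18, and the log2 difference was -0.34 ± 0.30 in limma (adjusted p = 0.851) and -1.05 in edgeR (adjusted p = 0.00349). Without mouse 7 the limma difference was -0.22.
mt-Tr, the arginine tRNA, took up 0.0638%, 0.0388% and 0.0617% against 0.0832% to 0.263%, with a median of 0.118%. All shRTP801 mice lay above, as in no other mt-tRNA (1 of 22, 4.55%), and the log2 difference was 1.26 ± 0.55 (SE; limma adjusted p = 0.619), turning to -1.37 on the deposited values. It also had the lowest interaction p of the class (limma adjusted p 0.122), with -1.15 in WT mice. mt-Tr and mt-Tc, below, were the 2 of 22 (9.09%) with an unadjusted interaction p under 0.05.
mt-Tc, the cysteine tRNA, took up 2.39%, 0.846% and 0.846% against 1.33% to 6.39% (1.26 ± 0.61, and -1.41 on the deposited values). The valine and glutamate tRNAs mt-Tv and mt-Te, next in abundance after mt-Th, differed by -0.05 ± 0.34 (-0.02 without mouse 7) and -0.14 ± 0.55. The fewest reads in any 5xFAD mouse were 1859 for mt-Th, 384 for mt-Tc and 5 for mt-Tr, so the lowest counts of mt-Tr are coarse.

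**Figure D5:**
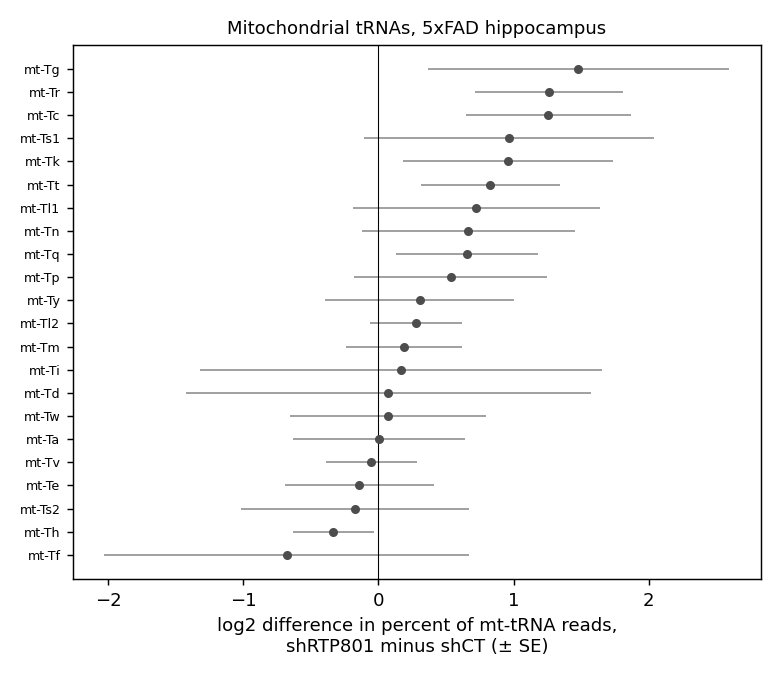
Fitted log2 difference (shRTP801 minus shCT, horizontal axis, bars ± SE) of the percentage of mt-tRNA reads for the 22 mitochondrial tRNAs of 5xFAD mice, in order of the difference. mt-Tr, at 1.26, was the 1 tRNA with all shRTP801 mice above all shCT mice, and on the deposited values all 22 differences were negative.

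snoRNAs were compared as a percentage of snoRNA reads. None of 272 passed in limma (0%), with 0 before adjustment, while edgeR gave 15 and DESeq2 8 before and 0 after it. Box C/D snoRNAs, which guide 2′-O-methylation, were mostly fitted lower, at 69 of 81 with a median of -0.68, but the median was -0.11 without mouse 7. Box H/ACA snoRNAs, which guide pseudouridylation, were divided, with 18 of 36 lower and a median of 0.01. The median over all snoRNAs was -0.37, and 0.06 without mouse 7, whereas on the deposited values 0 of 269 were fitted higher, so these directions too hold only relative to the class.
Snord80, the most abundant, took up 25%, 25.4% and 26.3% of snoRNA reads in shCT mice 1, 16 and 18 and 0.0298% to 22.1%, with a median of 17.9%, in shRTP801 mice. It was the 1 snoRNA of 272 with all shRTP801 mice below (0.368%). The log2 difference was -2.18 ± 1.90 (SE; limma adjusted p = 0.994), -0.67 without mouse 7 and 0.22 with the snoRNA share as a covariate.
Snord23 was the 1 snoRNA with all shRTP801 mice above (0.368%), at 0.00496% to 0.0176% against 0.00455%, 0.00357% and 0.00203% (1.14 ± 0.72, limma adjusted p = 0.994, and -0.82 on the deposited values), on 1 to 113 reads. Snord35a and Snord111, which guide methylation of 28S rRNA, had log2 differences of -2.17 ± 1.10 and -2.65 ± 1.58 (-1.73 and -1.60 without mouse 7). They were among 6 snoRNAs (2.21%) with an unadjusted interaction p under 0.05 in limma, with 2.02 and 2.30 in WT mice, and none passed after adjustment. The 4 Snord116 genes of the table, from the imprinted cluster expressed in neurons, were all fitted lower, with a median of -0.64, and -0.27 without mouse 7.

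Other small RNAs were compared as a percentage of their own class, which is a mixed remainder. Its most abundant members were CT010467.1, Rnu2-10 and Gm25091. None of 488 passed in limma (0%) or DESeq2, with 3 lower (0.615%) and 2 higher (0.41%) in limma before adjustment. The balance of directions changed with the setting: without mouse 7 limma gave 2 lower and 15 higher, with log2 percentages centred on the median feature 2 and 12, with the snoRNA share as a covariate 1 and 41, and DESeq2 gave 12 and 32 and edgeR 19 and 23. edgeR called Gm23212 (log2 difference in limma -1.75 ± 0.67), an unnamed gene with at most 474 reads in a mouse. All shRTP801 mice lay below at 6 (1.23%) and above at 3 (0.615%), and 11 (2.25%) had an unadjusted interaction p under 0.05, none after adjustment.
Rn7sk, the RNA that holds the elongation factor P-TEFb inactive, took up 0.135%, 0.181% and 0.295% in shCT mice 1, 16 and 18 and 0.0410% to 0.146%, with a median of 0.0995%, in shRTP801 mice. The groups overlapped by 1 mouse, and the log2 difference was -1.04 ± 0.52 (SE; limma adjusted p = 0.993). Rpph1, the RNA of RNase P, which removes the leader of pre-tRNAs, differed by -0.52 ± 0.68, on 0 to 85 reads, and Rmrp, of the related RNase MRP, by -0.71 ± 0.70.
The Y RNAs Rny1 and Rny3, which bind the Ro60 protein, differed by -1.25 ± 1.73 and -0.75 ± 1.29 (-0.33 and -0.12 without mouse 7), and the vault RNA Vaultrc5 by -0.20 ± 0.70. Of 8 spliceosomal RNAs, 6 were fitted lower and 2 higher, with a median of -0.30 (0.14 without mouse 7) beside 0.11 for all 488 (0.39 without mouse 7). Rnu12, of the minor spliceosome, had the highest at 0.64 ± 0.60, and Rnu7, which serves histone mRNA processing, stood at -1.11 ± 1.18 (-0.39 without mouse 7).
Mir1983, whose hairpin holds the isoleucine tRNA shown above, had 42.3, 29.7 and 11.6 RPM in shCT mice and 8.41 to 38.9, with a median of 16.2, in shRTP801 mice. The groups overlapped (27.9 ± 15.5, SD, n = 3, and 19.9 ± 12.8, SD, n = 6). The Ile-TAT-2-1 precursor had 26.7, 15.4 and 6.23 RPM against 0.371 to 20.3, and mice 19 and 8 were the highest shRTP801 mice for both.

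On the deposited scale, which is common to all classes, 0 of 1281 entries passed in limma, with 9 lower (0.703%) and 1 higher (0.0781%) before adjustment, and 0 passed in edgeR or DESeq2. The classes lay apart: 158 of 202 mature tRNAs and most of the 262 precursor loci were fitted higher, against 0 of 22 mt-tRNAs, 0 of 269 snoRNAs, 0 of 50 rRNA genes and 12 of 476 other small RNAs. The median log2 difference over all entries was -1.21 on the deposited values and -0.41 as RPM, and without mouse 7 the median on the deposited values was -0.44. The medians of the classes, from -2.46 for snoRNAs to 0.71 for precursors, include mouse 7 and are to be read against -1.21.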

How the data were processed

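Small RNA of 60 to 100 nucleotides was cut from a gel, partly hydrolysed and sequenced with 50-bp reads (Hydro-tRNA-seq). The authors counted the reads with tRAX and deposited normalized counts, a signal scaled by size factors, for mature tRNA isodecoders, precursor loci and other small RNA genes, and the submitters' processing notes name the build mm39. Each library came from 1 mouse. Dividing by the value of 1 read gave whole reads for 100% of the deposited values (tolerance 0.001). Near-identical copies of a gene were counted once for snoRNAs, rRNAs and other small RNAs. RefSeq sequences carry the build GRCm38.p6.

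Within each class, the log2 of the percentage plus 0.001% was fitted with limma 3.58.1 (R 4.3.3) as 4 group means over all 18 mice, leaving out features whose mean was under 0.001%, and p values were adjusted by the Benjamini-Hochberg method (threshold 0.05). The spread is thus shared by all 4 groups. The 6 class shares were tested by two-sided exact permutation of the difference between group means. All splits were enumerated, and the calculation was checked against scipy 1.17.1 on a small example. edgeR 4.0.16 and DESeq2 1.42.0 on the recovered reads, other scales, filters and pseudocounts, and leaving out each mouse, were alternatives. The limma step was tested on simulated data. The rule for named genes took the intron-containing families and loci, the 4 smallest p values of each direction in a table, the 3 most abundant features and genes fixed by role. Features without overlap between groups were named beyond it, after their values were seen. The members, lists and rules were chosen with earlier results of these data known. Of snoRNA names in the table, 469 of 476 matched RefSeq, and of other small RNA names 665 of 902. Snord115 genes were not among those analysed here.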

Additional observations from a re-analysis of the deposited data

Results flagged for a closer look

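Among 47 groups of 6 shRTP801 mice, 5 had a mouse whose gap to the nearest other mouse, as a share of the whole range, was above Dixon's critical value, which chance passes in about 1 in 20 groups. The precursor share of all reads was 1.69% in mouse 7, with a gap of 0.845 of the range. Pre-tRNA-Pro-CGG was lowest in mouse 14, at 0.0369% of precursor reads (gap 0.712). The Ala-AGC-1-1 precursor was highest in mouse 2, at 0.00775% (gap 0.698). Snord23 was highest in mouse 14, at 0.0176% of snoRNA reads (gap 0.672), and Gm22392, an unnamed gene, was highest in mouse 12, at 0.0419% of other small RNA reads (gap 0.675).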

How the results depend on the processing

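Of 1223 values under an alternative, 1211 counted as unchanged. For most this meant the same direction and side of the threshold, but 254 were counts of passing features, which have no direction. For the intron-containing share it meant a shift below the SD of its log2 value in shRTP801 mice. Nothing passed the threshold in the main setting, so keeping that side says little about a difference. Of 40 named features, 35 kept their sign under every alternative run. With edgeR, 1 mt-tRNA (mt-Th, log2 difference -1.05) and 1 other small RNA (Gm23212) passed. Read-end types passing ranged from 0 to 2 when 1 mouse was left out (Met-CAT-4 whole reads without mouse 8, Ser-AGA-1 and Ser-TGA-2 whole reads without mouse 16), and 1 passed, Met-CAT-4 whole reads, without mice 7, 8 and 12. Without these 3 mice the rRNA share turned to 0.49 (log2). On the deposited normalized values mt-Tr turned to -1.37, mt-Tc to -1.41, Snord23 to -0.82 and Gm22392 to -0.019, and with the snoRNA share as a covariate Snord80 turned to 0.22. The cause was not tested. Without mouse 7 and WT mice 5 and 4, unadjusted limma p values under 0.05 numbered 89 higher and 12 lower other small RNAs and 12 higher and 4 lower snoRNAs, with none after adjustment. Leaving out each mouse gave log2 ratios of 0.60 to 0.85 for the mature share, 0.56 to 1.5 for precursors, -1.42 to -0.90 for mt-tRNAs, -1.79 to -1.18 for snoRNAs, -0.89 to -0.0064 for rRNA and -1.20 to -0.75 for other small RNAs. For pre-tRNA-Tyr-GTA it gave -2.26 to -1.76, for Leu-CAA -2.68 to -1.78, for Ile-TAT -2.20 to -1.15 and for Arg-TCT -1.89 to -1.20. Both alternatives that leave out several mice (7, 8 and 12, or 7 with WT mice 5 and 4), and leaving out each mouse for precursor reads per 1000 mature reads, were chosen after seeing the data. No paired analysis was possible because the mouse numbers are unique and none is shared between groups. Only 3 control mice and, at many loci, fewer than 10 reads limit the precision.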
